A study of Mus musculus with 10 samples.

Results

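Potassium channel genes in the left ventricle of pressure-loaded mouse hearts were followed in osimertinib-treated and placebo-treated animals. The set held every protein-coding gene whose symbol begins with Kcn, together with Abcc8 and Abcc9, that reached 1 CPM (reads of a gene scaled to the library's total) in at least 3 of the 10 libraries. Of 96 such channel genes in the deposited table of 45706 genes, 41 met this rule and 55 did not, and 16 of the 55 were listed at 0 in every library. The 41 comprised 16 voltage-gated subunits, 7 inward rectifiers, 4 two-pore channels, 5 calcium- or sodium-activated channels and 9 accessory subunits, the calcium- or sodium-activated channels being kept as a class of their own because they belong to none of the other classes. Just inside the rule stood Kcnc2, with 1 CPM in 3 libraries and a highest value of 2.32 CPM, and Kcnt1, with 1 CPM in 4 libraries and a highest value of 1.77 CPM. Just outside it stood Kcne3, with 1 CPM in 2 libraries, and Kcnc1, Kcnc4 and Kcnj4 with 1 library each.

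The libraries came from hearts after transverse aortic constriction (TAC), an operation that narrows the aorta and loads the left ventricle with pressure. One group of 5 libraries was TAC osimertinib, treated with a lung cancer drug that blocks the EGFR tyrosine kinase. The other group of 5 was TAC placebo, whose treatment the labels give as vehicle. Both groups had the operation, and the labels used here give neither strain, age, dose nor duration, and describe the material as all heart cells of the left ventricle. Nothing in the labels states that each sample was a different animal, and the p-values therefore describe the spread between these samples, which may be technical.

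Potassium channels carry the outward currents that end the cardiac action potential and hold the resting potential. In the adult mouse ventricle the transient outward current, built on Kv4 subunits with KChIP2, and other voltage-gated currents such as that of Kv1.5 do most of the repolarising, while Kir2 channels set the resting potential. In the human heart the hERG channel and the KCNQ1 channel carry the rapid and slow delayed rectifier currents, and loss of either lengthens the QT interval.

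The libraries held between 15863265 and 21309296 reads, recovered from the spacing of low CPM values. Mitochondrially encoded transcripts took 31.75% to 45.17% of the CPM in osimertinib libraries and 38.13% to 63.35% in placebo libraries, with the highest share in placebo library 5. To bring the libraries to one scale, each was divided by its median ratio over tested genes to the library of geometric means, a factor of 0.455 for placebo library 5 and of 0.926 to 1.34 for the other 9, and values after this step are called rescaled CPM. Some libraries labelled left ventricle carried atrial muscle transcripts: Myl7, the atrial myosin light chain, had 267, 310, 0.288, 1149 and 0.324 rescaled CPM in osimertinib libraries 1 to 5, against 256, 55.5, 0.862, 0 and 267 in placebo libraries 1 to 5. The summed level of 8 atrial markers was 715 to 4741 in osimertinib libraries and 521 to 1419 in placebo libraries. Bmp10 was at 0 in every library. Nppa, 1 of the 8, made up most of the sum in the libraries with little Myl7. It had 1496 of 1521 and 685 of 715 in osimertinib libraries 3 and 5. In placebo libraries 3 and 4 it had 1081 of 1100 and 490 of 521. The summed level of 10 ventricular cardiomyocyte markers was 30210 to 51820 rescaled CPM in osimertinib libraries and 14970 to 35770 in placebo libraries, and in bulk tissue fewer cells of a type and less RNA per cell cannot be told apart.

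Osimertinib hearts carried more transcript of Kcnq1, Kcnj5, Kcng2, Kcnk3, Kcnn2 and Kcnj12 and less of Kcnd3 than placebo hearts. Of the 39 members tested, 8 were past an adjusted p of 0.05, which is 20.5%, 6 of them higher and 2 lower, by limma with an intensity trend on log2(rescaled CPM + 0.5) and Benjamini-Hochberg adjustment over 12350 genes. Over all genes tested, 20.8% passed, 10.4% higher and 10.5% lower, so the members' share was near that of the background. The members' median log2 fold change was 0.10, against 0.01 over all genes tested. The counts leaned on single libraries: 4 members passed without osimertinib library 3 or 5 or placebo library 1 or 2, and Kcnq1, Kcnj5 and Kcng2 were among them each time, while 517, 700, 875 and 819 genes of the whole table passed in those fits. In the deposited CPM, without rescaling, 7 of the 39 members passed, all higher. This was a larger share than the 6.74% of all genes tested (833 of 12350), a difference that was not tested. Of all genes, 817 were higher (6.62%) and 16 lower (0.13%), and the median gene stood 0.27 above 0 on the log2 scale.

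**Figure D1:**
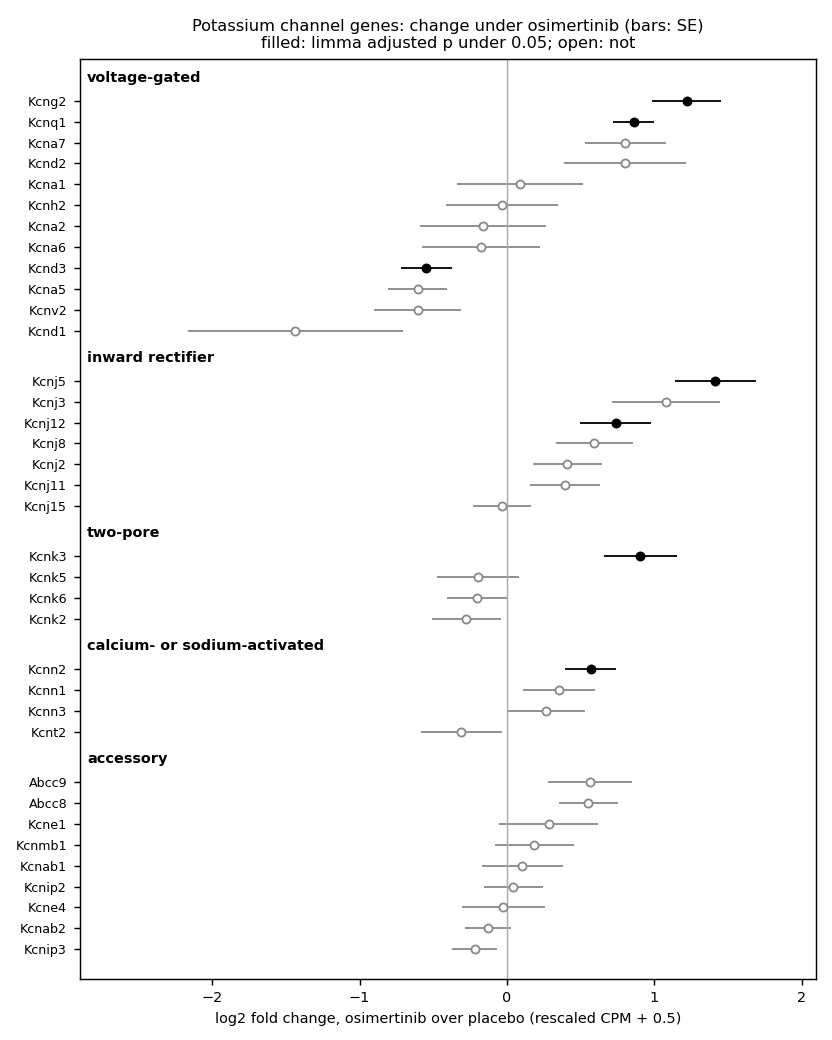
Change of 36 of the 39 tested potassium channel genes by class. The horizontal axis is the log2 fold change of osimertinib over placebo hearts on the log2(rescaled CPM + 0.5) scale (n = 5 each), bars are standard errors, and filled points passed a limma adjusted p of 0.05; the 6 filled points right of 0 and the 1 left of it stand in 4 classes, and no accessory subunit is filled.

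By class, the shares called are given beside the 20.8% of all genes tested. Of 15 tested voltage-gated subunits, 2 rose and 2 fell (26.7%), with a median log2 fold change of -0.16 in rescaled CPM and 0.09 in deposited CPM. Of 7 inward rectifiers, 2 rose and none fell (28.6%), with a median of 0.59. Of 4 two-pore channels, 1 rose (25%), and of 4 calcium- or sodium-activated channels, 1 rose (25%). None of 9 accessory subunits passed in limma with the intensity trend or with voom weights, and 1 of them had an unadjusted p under 0.05. In 3 members each osimertinib library lay above each placebo library, which held for 5.72% of all genes tested. A further set of 7 tested members, none past the threshold on either scale, had opposite signs in rescaled and in deposited CPM, and they were Kcnab2, Kcne4, Kcnj15, Kcnk6, Kcna6, Kcna2 and Kcnh2.

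Levels between genes were compared per kilobase of exon in the GENCODE M21 annotation of the mouse genome (GRCm38). The highest mean over all libraries was that of Kcnip2, which encodes KChIP2, at 18.9 rescaled CPM per kilobase. Kcng2 followed at 18.6, Kcna5 at 17.6 and Kcnk3 at 17.6. By group, the per-kilobase level of Kcnip2 was 19.1 in osimertinib and 18.7 in placebo hearts, which was the highest in neither. That of Kcnk3 was 22.7 in osimertinib and 12.4 in placebo hearts, and that of Kcng2 was 25.7 in osimertinib and 11.4 in placebo hearts. Kcna5 had 13.8 in osimertinib and 21.4 in placebo hearts. Behind these 4 came Kcnj8 at 9.48 and Abcc9 at 6.83, then Kcnh2 at 6.74, and the lowest member was Kcnt1 at 0.11.

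Among the genes of ventricular repolarisation, Kcnq1 rose and Kcnd3 fell, and Kcnd2, Kcnip2, Kcnh2 and Kcnj2 did not pass the test. Kcnq1 (chr7:143106362-143427042, GRCm38) encodes the pore of the slow delayed rectifier. It had 12.1, 12.8, 16.7, 16.2 and 14.5 rescaled CPM in osimertinib libraries 1 to 5, against 6.64, 6.75, 8.11, 7.14 and 10.2 in placebo libraries 1 to 5. Every osimertinib library lay above every placebo library. Its mean was 14.4 ± 2.03 in osimertinib and 7.77 ± 1.49 in placebo hearts (SD, n = 5 each), a log2 fold change of 0.86 ± 0.14 (SE) with a limma adjusted p of 0.00867. The call held in each of the 10 fits that left out a library, with adjusted p up to 0.0307, and in deposited CPM (adjusted p = 0.013). The antisense transcript Kcnq1ot1, which overlaps the gene and is listed separately, had 1.55, 2.18, 1.49, 2.96 and 1.51 rescaled CPM in osimertinib and 2.62, 3.14, 3.14, 2.42 and 4.44 in placebo libraries. The library preparation was strand-specific, per the design text, and the strand setting of the counting is not given in the sources used here, so reads of overlapping genes on opposite strands are uncertain.

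Kcne1, the beta subunit that slows the KCNQ1 channel, did not pass. Its level was 7.27, 1.52, 2.92, 4.86 and 2.54 rescaled CPM in osimertinib libraries and 3.04, 2.25, 1.77, 2.23 and 4.96 in placebo libraries, with osimertinib libraries 1 and 4 and placebo library 5 high and the groups overlapping. In deposited CPM placebo library 5 had 2.253, below placebo libraries 1 (3.208) and 2 (3.026). The log2 fold change was 0.28 ± 0.34 (limma adjusted p = 0.572).

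The transient outward current rests on the Kv4 pore subunits Kcnd2 and Kcnd3 and on KChIP2, which brings them to the membrane. Kcnd3 (chr3:105452330-105674002), which encodes Kv4.3, had 6.44, 10.3, 5.99, 9.92 and 6.32 rescaled CPM in osimertinib libraries and 13, 12.4, 8.87, 11.9 and 10.8 in placebo libraries. Osimertinib libraries 1, 3 and 5 lay below every placebo library, and osimertinib libraries 2 and 4 lay above placebo library 3. The mean was 7.79 ± 2.12 in osimertinib and 11.4 ± 1.63 in placebo hearts (SD, n = 5 each), and the log2 fold change was -0.55 ± 0.17 (limma adjusted p = 0.0421). This call held in 3 of 10 fits that left out a library, did not hold when osimertinib library 1, 3 or 5 or placebo library 1, 2, 4 or 5 was left out (adjusted p 0.057 to 0.11), and was not made in deposited CPM (-0.28, adjusted p = 0.658).

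Kcnd2 (chr6:21215503-21729805) encodes Kv4.2. It had 1.31, 2.89, 3.31, 2 and 4.81 rescaled CPM in osimertinib libraries and 0.374, 2.77, 2.23, 2.23 and 0.413 in placebo libraries, where libraries 1 and 5 were low and the other 3 lay within the osimertinib range. Its log2 fold change was 0.80 ± 0.42 and did not pass (limma adjusted p = 0.175). Kcnip2 (chr19:45791839-45816061) had 51.4, 60.1, 80.04, 55 and 85.2 rescaled CPM in osimertinib libraries and 56.8, 88.5, 54.4, 80.5 and 45.1 in placebo libraries. The placebo values spanned the whole osimertinib range, with placebo library 2 highest and placebo library 5 lowest. Its log2 fold change was 0.04 ± 0.20 (limma adjusted p = 0.893), and the sign turned in the fits without osimertinib library 3 or 5 or placebo library 3 or 5.

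Kcnh2 (chr5:24319589-24351604), the mouse gene of the hERG channel, had 29.4, 26.6, 21.3, 50.5 and 23.7 rescaled CPM in osimertinib libraries and 21.6, 27.7, 13.1, 38.8 and 74 in placebo libraries. Osimertinib library 4 stood above the other 4 of its group, and placebo library 5 was the highest and placebo library 3 the lowest of all 10. In deposited CPM placebo library 5 was not the highest. It had 33.65 there, below osimertinib library 4 (59.88) and placebo libraries 2 (37.26) and 4 (35.92). The log2 fold change was -0.04 ± 0.38 (limma adjusted p = 0.955), with a sign that turned in deposited CPM (0.25) and without osimertinib library 3 or 5 or placebo library 4 or 5 (0.29 without placebo library 5). The standard error of Kcnh2 was larger than that of Kcnq1 (0.38 against 0.14).

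Kir2 channels set the resting potential and the last phase of repolarisation. Kcnj2 (chr11:111066164-111076821), which encodes Kir2.1, had 8.16, 11.7, 17, 9.47 and 15.7 rescaled CPM in osimertinib libraries and 10.8, 9.89, 8.72, 11.3 and 5.16 in placebo libraries. Osimertinib libraries 2, 3 and 5 lay above every placebo library and libraries 1 and 4 lay within the placebo range. The log2 fold change was 0.41 ± 0.23 (limma adjusted p = 0.217). Kcnj12 (chr11:61022564-61071131), which encodes Kir2.2, had 1.73, 1.62, 2.59, 3.41 and 2.49 rescaled CPM in osimertinib libraries and 1.03, 0.75, 1.27, 2.23 and 0.929 in placebo libraries. Placebo library 4 lay above osimertinib libraries 1 and 2, and the other 4 placebo libraries lay below every osimertinib library. Kcnj12 rose, with a log2 fold change of 0.74 ± 0.24 (limma adjusted p = 0.0469), a call that held in 3 of 10 fits leaving out a library, those without osimertinib library 1 or 2 or placebo library 4, and was lost in the other 7 with adjusted p up to 0.11.

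**Figure D2:**
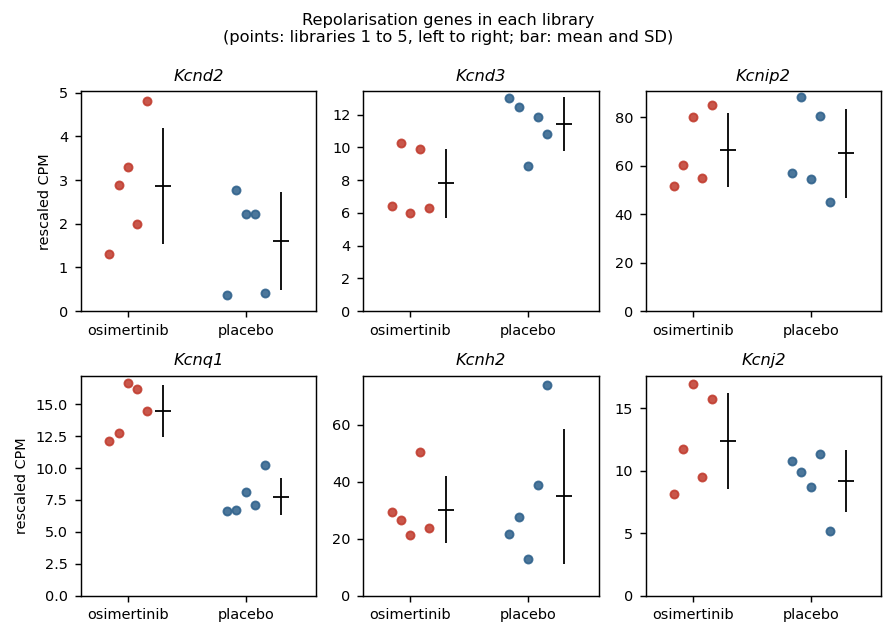
Rescaled CPM of 6 repolarisation genes in each library, osimertinib in red and placebo in blue, with libraries 1 to 5 from left to right in each group. The bar beside each group is the mean with its SD (n = 5); the Kcnq1 groups do not overlap, the Kcnd3 groups overlap in the range of placebo library 3, and placebo values of Kcnip2 and Kcnh2 span the osimertinib values.

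Beyond these, the voltage-gated subunit Kcng2 rose. Kcng2 (chr18:80294546-80364254) encodes Kv6.2, a subunit that forms no channel alone and modifies the channels of other subunits. It had 63.9, 68, 87.8, 68.3 and 96.5 rescaled CPM in osimertinib libraries and 19.96, 22.9, 43.1, 48.3 and 36.5 in placebo libraries. Every osimertinib library lay above every placebo library, and placebo libraries 1 and 2 were the lowest. Its mean was 76.9 ± 14.3 in osimertinib and 34.2 ± 12.4 in placebo hearts (SD, n = 5 each), a log2 fold change of 1.22 ± 0.23 with a limma adjusted p of 0.0132, and the call held in each of the 10 fits leaving out a library.

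Kcna5 (chr6:126532551-126535412), which encodes Kv1.5 of the ultrarapid delayed rectifier, stood at the threshold. Its level was 55.9, 35.4, 34.4, 35.3 and 36.5 rescaled CPM in osimertinib libraries and 51.2, 59.4, 78, 78.7 and 39 in placebo libraries. Osimertinib libraries 2 to 5 lay between 34.4 and 36.5, below every placebo library, and osimertinib library 1 lay among the placebo values. The log2 fold change was -0.60 ± 0.20 (limma adjusted p = 0.0503). It passed without osimertinib library 1 (-0.74, limma adjusted p = 0.0232) and without placebo library 5 (-0.75, adjusted p = 0.0239). Further tested voltage-gated members, Kcna1, Kcna2, Kcna6, Kcna7, Kcnd1 and Kcnv2, had log2 fold changes between -1.44 and 0.80. The lowest was that of Kcnd1, which was -0.56 without placebo library 2 (limma adjusted p = 0.157). Kcna7, chosen after its values were seen, had 0.894, 2.13, 1.97, 1.7 and 2 rescaled CPM in osimertinib and 0.608, 0.328, 0.71, 1.77 and 0.723 in placebo libraries, with a log2 fold change of 0.80 ± 0.27 (limma adjusted p = 0.0536). It passed in deposited CPM (limma adjusted p = 0.0361). Kcna7 met the filter through 5 libraries, osimertinib libraries 2 to 5 and placebo library 4, mostly of the group where it was high. It was therefore tested in only 5 of the 10 fits leaving out a library. It passed in 1 of them, without osimertinib library 1 (limma adjusted p = 0.028), with adjusted p up to 0.124 in the others. Kcnc2 was not tested, having too few libraries at 1 CPM for the filter, and did not pass when the filter asked for 3 libraries (adjusted p = 0.46).

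**Figure D3:**
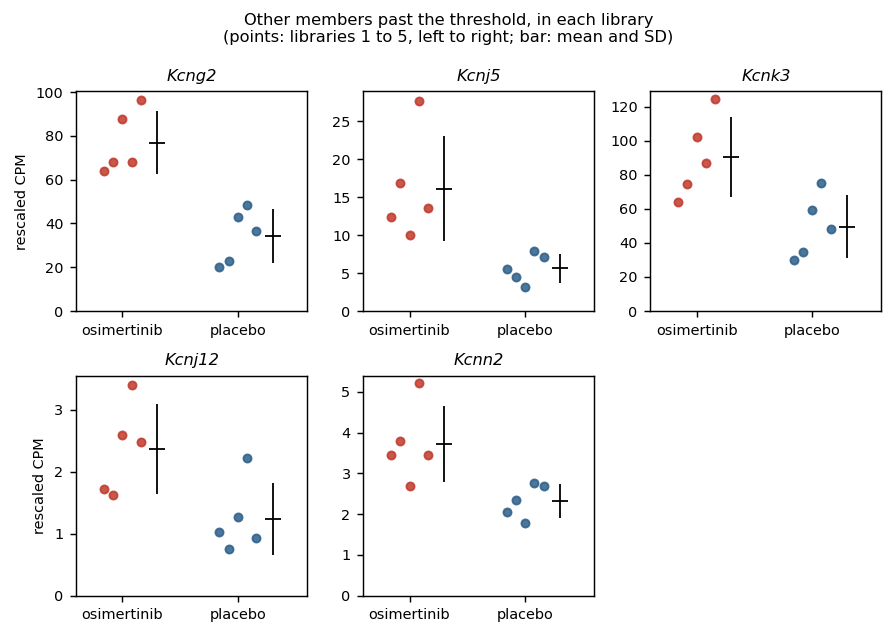
Rescaled CPM of 5 further members past the threshold, osimertinib in red and placebo in blue, with libraries 1 to 5 from left to right in each group. The bar beside each group is the mean with its SD (n = 5); the groups of Kcng2 and Kcnj5 do not overlap, and those of Kcnk3, Kcnj12 and Kcnn2 do.

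The G protein-gated inward rectifiers Kcnj5 and Kcnj3 make up the acetylcholine-activated channel, best known from atrial muscle and the sinus node, and Kcnj5 had the highest log2 fold change of the tested members. Kcnj5 (chr9:32314707-32344350), which encodes Kir3.4, had 12.4, 16.9, 10.1, 27.7 and 13.6 rescaled CPM in osimertinib libraries and 5.56, 4.46, 3.14, 7.87 and 7.12 in placebo libraries. Every osimertinib library lay above every placebo library, and osimertinib library 4 was the highest. Its mean was 16.1 ± 6.93 in osimertinib and 5.63 ± 1.92 in placebo hearts (SD, n = 5 each), a log2 fold change of 1.42 ± 0.27 (limma adjusted p = 0.0132), and the call held in each of the 10 fits leaving out a library. Kcnj3 (chr2:55435970-55598145), which encodes Kir3.1, had 15.6, 22.1, 12.1, 48.2 and 9.83 rescaled CPM in osimertinib libraries and 9.91, 10.8, 4.51, 9.04 and 9.09 in placebo libraries. Osimertinib libraries 1, 2, 3 and 4 lay above every placebo library and osimertinib library 5 lay among them. Its log2 fold change was 1.08 ± 0.37 and did not pass (limma adjusted p = 0.053). Nor did Kcnj3 pass in any of the 10 fits leaving out a library (limma adjusted p 0.0545 to 0.0964). It also missed with voom weights (adjusted p = 0.0608) and with quantile scaling (adjusted p = 0.0555). It passed with the atrial marker score as a term (0.84, adjusted p = 0.0134), where 39.4% of all genes tested passed, and in deposited CPM (1.35, adjusted p = 0.00886).

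Promoter sequences are given for the 2 partners of this channel, of which Kcnj5 passed the test, and for Kcnd3, which fell. They are the 250 bases before the RefSeq start, 5′ to 3′ on the gene's strand in GRCm38.p6, where 26 of the 41 members had an entry, with matches to the Sp1 motif in capitals.
Kcnj5 promoter, chr9:32344345-32344594, minus strand: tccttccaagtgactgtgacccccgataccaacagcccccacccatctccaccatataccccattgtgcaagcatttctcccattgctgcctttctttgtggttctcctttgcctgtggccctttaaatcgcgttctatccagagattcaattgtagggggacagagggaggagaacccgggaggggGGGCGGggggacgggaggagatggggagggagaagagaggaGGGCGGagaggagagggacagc
Kcnj3 promoter, chr2:55435720-55435969, plus strand: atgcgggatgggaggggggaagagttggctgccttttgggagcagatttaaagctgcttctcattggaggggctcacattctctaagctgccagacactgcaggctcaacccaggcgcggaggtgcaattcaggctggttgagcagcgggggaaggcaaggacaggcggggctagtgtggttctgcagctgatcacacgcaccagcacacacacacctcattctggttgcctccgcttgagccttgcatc
Kcnd3 promoter, chr3:105451640-105451889, plus strand: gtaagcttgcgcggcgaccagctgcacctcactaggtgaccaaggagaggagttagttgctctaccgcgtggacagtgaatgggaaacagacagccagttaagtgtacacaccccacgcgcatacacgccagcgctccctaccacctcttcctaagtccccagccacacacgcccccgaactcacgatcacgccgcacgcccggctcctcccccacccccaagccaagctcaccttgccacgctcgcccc
The Sp1 letters GGGCGG, searched on both strands like the other motifs, were present in 32.9% of the 27025 promoters of the table. The Kcnj5 window held 2 matches to them and the Kcnj3 and Kcnd3 windows none. No window of the 3 held the TATA box letters TATAAA, which 13% of all promoters held. The same was true of the GATA factor letters GATAAG, held by 6.6% of all promoters, and of the estrogen-related receptor letters AAGGTCA, held by 4.05%. It was true as well of the cAMP response element TGACGTCA, held by 1.62%, and of the TEAD factor letters GGAATG, held by 12.6%. A match is a description of the letters and not a binding site.

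ATP-sensitive potassium channels pair an inward rectifier pore with a sulphonylurea receptor, and none of their 4 genes passed in limma with the intensity trend or with voom weights, while Abcc8 and Kcnj8 had an unadjusted p under 0.05. With the atrial marker score as a term, 3 of the 4 passed, Kcnj8 (0.79, limma adjusted p = 0.000313), Abcc9 (0.77, adjusted p = 0.00145) and Abcc8 (0.56, adjusted p = 0.0394). In that fit 39.4% of all genes tested passed. With the ventricular marker score as a term none of the 4 passed. Kcnj8 then had -0.14 (limma adjusted p = 0.686), Abcc9 -0.16 (adjusted p = 0.773), Abcc8 0.30 (adjusted p = 0.567) and Kcnj11 0.125 (adjusted p = 0.872). Kcnj11, the Kir6.2 pore of cardiac muscle, had 3.4, 4.31, 4.6, 4.26 and 4.97 rescaled CPM in osimertinib libraries and 1.5, 3.89, 2.53, 3.87 and 4.96 in placebo libraries, with overlapping groups and a low value in placebo library 1. Its log2 fold change was 0.40 ± 0.24 (adjusted p = 0.242). Abcc8, the SUR1 receptor, had 17, 20.5, 16.6, 30.5 and 20.3 rescaled CPM in osimertinib libraries and 9.54, 13.2, 15.8, 19.7 and 12.7 in placebo libraries. Placebo library 4 lay above osimertinib libraries 1 and 3, and the log2 fold change was 0.55 ± 0.20 (limma adjusted p = 0.0646), which passed without placebo library 4 (0.68, adjusted p = 0.0319).

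Kcnj8 encodes the Kir6.1 pore and Abcc9 the SUR2 receptor, which together form a channel known from vascular smooth muscle and pericytes. Which cells carried their transcripts here was not tested. The genes are neighbours on chromosome 6, Kcnj8 at chr6:142564837-142571614 and Abcc9 at chr6:142587862-142702315. Kcnj8 had 23.5, 25.3, 31.7, 18.9 and 46.7 rescaled CPM in osimertinib libraries and 12.2, 19.5, 24.8, 25.8 and 13.3 in placebo libraries. Abcc9 had 51.7, 64.8, 80.9, 39.8 and 104 rescaled CPM in osimertinib libraries and 34.6, 53.7, 55.9, 61.2 and 24.8 in placebo libraries. In both genes osimertinib library 5 was the highest and osimertinib library 4 the lowest of its group, and the groups overlapped. The ratio of Kcnj8 to Abcc9 stayed between 0.354 and 0.538 over all 10 libraries. The log2 fold change was 0.59 ± 0.26 for Kcnj8 (limma adjusted p = 0.112) and 0.56 ± 0.29 for Abcc9 (limma adjusted p = 0.168). Kcnj15, the remaining inward rectifier, had a log2 fold change of -0.03 ± 0.20 (limma adjusted p = 0.92).

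Among the two-pore channels, which carry background potassium current, Kcnk3 rose and the other 3 did not pass. Kcnk3 (chr5:30588170-30625271) encodes the acid-sensitive TASK-1 channel. It had 63.9, 74.8, 102, 86.8 and 124 rescaled CPM in osimertinib libraries and 30.1, 34.7, 59.6, 75 and 48 in placebo libraries. Placebo library 4 lay above osimertinib libraries 1 and 2, and the other 4 placebo libraries lay below every osimertinib library. The mean was 90.4 ± 23.7 in osimertinib and 49.5 ± 18.4 in placebo hearts (SD, n = 5 each), and the log2 fold change was 0.90 ± 0.25 (limma adjusted p = 0.0294). The call held in 6 of 10 fits leaving out a library and did not hold when osimertinib library 3 or 5 or placebo library 1 or 2 was left out (adjusted p 0.067 to 0.0798). A transcript on the opposite strand of the Kcnk3 locus, Gm9899, had 10.1, 9.78, 8.2, 17.7 and 9.13 rescaled CPM in osimertinib libraries and 12, 14.9, 8.46, 19.4 and 15.3 in placebo libraries.

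Kcnk6, the TWIK-2 channel, had 4.05, 5.73, 4.03, 4.31 and 4.16 rescaled CPM in osimertinib libraries and 8.09, 6.28, 5.37, 4 and 3.3 in placebo libraries, and its log2 fold change of -0.20 ± 0.20 (limma adjusted p = 0.489) turned to 0.03 in deposited CPM. Kcnk2, the stretch-sensitive TREK-1 channel, had 0.655, 1.06, 2.06, 1.2 and 1.41 rescaled CPM in osimertinib libraries and 1.45, 2.2, 1.62, 0.983 and 1.86 in placebo libraries. Its groups overlapped and its log2 fold change was -0.28 ± 0.23 (limma adjusted p = 0.408). Kcnk5, the least abundant of the 4 per kilobase, had a log2 fold change of -0.20 ± 0.28 (limma adjusted p = 0.634).

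Of the calcium- or sodium-activated channels, Kcnn2 rose. Kcnn2 (chr18:45268860-45686024) encodes SK2, a small-conductance channel opened by calcium through calmodulin. It had 3.46, 3.8, 2.68, 5.21 and 3.46 rescaled CPM in osimertinib libraries and 2.06, 2.35, 1.77, 2.75 and 2.69 in placebo libraries. Osimertinib library 3 lay below placebo libraries 4 and 5, and the other 4 osimertinib libraries lay above every placebo library. The log2 fold change was 0.57 ± 0.17 (limma adjusted p = 0.0389), and the call held in 3 of 10 fits leaving out a library, those without osimertinib library 1 or placebo library 4 or 5, with adjusted p up to 0.0874 in the other 7. It was not made in deposited CPM (adjusted p = 0.0883).

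Kcnn1, the SK1 channel, had 4.71, 6.49, 8.87, 7.21 and 7.83 rescaled CPM in osimertinib libraries and 2.62, 5.77, 4.82, 7.41 and 7.33 in placebo libraries, with overlapping groups and a log2 fold change of 0.35 ± 0.25 (limma adjusted p = 0.313). Kcnt2, a sodium-activated channel, had 3.22, 2.38, 1.97, 4.96 and 2.76 rescaled CPM in osimertinib libraries and 5, 5.58, 2.43, 2.16 and 4.75 in placebo libraries. Its groups overlapped and its log2 fold change was -0.31 ± 0.27 (limma adjusted p = 0.433). Kcnn3 had a log2 fold change of 0.26 ± 0.26 (limma adjusted p = 0.493), and Kcnt1 was outside the filter and did not pass when the filter asked for 3 libraries (-0.61, adjusted p = 0.167). The accessory subunits not yet described were Kcnip3, Kcnab1, Kcnab2, Kcne4 and Kcnmb1, with mean levels of 1.14 to 2.05 rescaled CPM by group. Their log2 fold changes lay between -0.22 and 0.19 with limma adjusted p between 0.302 and 0.956.

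Ratios of related subunits were compared within libraries, where scaling between libraries does not enter. Some pairs assemble together, but Kcnj11 and Kcnj8 are both pores of ATP-sensitive channels, and Abcc8 and Abcc9 are both receptors. No ratio of such a pore to a receptor was tested. None of 8 ratios passed the two-sided exact permutation test of group labels, none had an unadjusted p under 0.05, and the smallest p the design allows is 0.00794. The Kcnd2 to Kcnd3 ratio was 0.204, 0.281, 0.552, 0.202 and 0.761 in osimertinib libraries and 0.0287, 0.223, 0.251, 0.188 and 0.0381 in placebo libraries. Placebo libraries 1 and 5, low in Kcnd2, had the lowest ratios, placebo library 4 lay just below the osimertinib range, and placebo libraries 2 and 3 lay within it. The 2 lowest ratios rest on few reads. Kcnd2 had 0.395 and 0.188 deposited CPM in placebo libraries 1 and 5, where 1 read is worth 0.0493 and 0.0469 CPM. The log2 ratio differed by 1.75 between osimertinib and placebo hearts (exact permutation p = 0.0635, adjusted p = 0.275). The Kcnip2 to Kcnd2 ratio differed by -1.12 on the log2 scale (exact permutation p = 0.0794, adjusted p = 0.275) and the Kcnip2 to Kcnd3 ratio by 0.62 (exact permutation p = 0.103, adjusted p = 0.275). The Kcne1 to Kcnq1, Kcnj2 to Kcnj12, Kcnj3 to Kcnj5, Kcnj11 to Kcnj8 and Abcc8 to Abcc9 ratios had exact permutation p between 0.198 and 1.

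Genes that regulate or anchor these channels moved in both directions. Of 34 channel partners and regulators, 28 were tested, 6 rose and 3 fell (32.1%, against 20.8% of all genes tested), with a median log2 fold change of 0.24 against 0.01 over all genes. Irx5, a transcription factor known in mouse to repress Kcnd2 across the ventricular wall, had 4.95, 3.85, 5.18, 3.36 and 4.97 rescaled CPM in osimertinib libraries and 2.62, 1.31, 1.77, 2.82 and 2.17 in placebo libraries. Every osimertinib library lay above every placebo library, and the log2 fold change was 0.93 ± 0.19 (limma adjusted p = 0.0141). Popdc2 and Bves encode cAMP-binding Popeye proteins that bind the TREK-1 channel. Popdc2 averaged 165 ± 50.8 rescaled CPM in osimertinib and 72 ± 25.4 in placebo hearts (SD, n = 5 each; log2 fold change 1.22 ± 0.26, limma adjusted p = 0.0158). Bves averaged 19.2 ± 4.97 in osimertinib and 8.95 ± 3.62 in placebo hearts (log2 fold change 1.10 ± 0.25, limma adjusted p = 0.0177). Prkaca, the catalytic subunit of protein kinase A, averaged 66.8 ± 17.4 in osimertinib and 41 ± 7.67 in placebo hearts (log2 fold change 0.68 ± 0.18, limma adjusted p = 0.0281). Actn2 and Cav3 also rose, and Sgk1 and Flna were among those that fell.

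Of 26 other action potential genes, 22 were tested, 4 rose and 2 fell (27.3%), with a median log2 fold change of 0.20. Scn4b, a sodium channel beta subunit, had 3.69, 6.08, 10.3, 5.21 and 14.9 rescaled CPM in osimertinib libraries and 1.96, 2.72, 3.85, 2.29 and 2.69 in placebo libraries. Osimertinib library 1 lay below placebo library 3, and the other 4 lay above every placebo library. Its log2 fold change was 1.28 ± 0.30 (limma adjusted p = 0.0195). Cacna1c, the pore of the L-type calcium channel, averaged 127 ± 7.62 in osimertinib and 177 ± 21.4 in placebo hearts (SD, n = 5 each; log2 fold change -0.47 ± 0.11, limma adjusted p = 0.0208), and each osimertinib library lay below each placebo library, which held for 6.82% of all genes tested. Atp1b1 also rose and Gjc1 also fell. Over both lists together the 15 calls became 2 without osimertinib library 3, 4 without osimertinib library 5, 4 without placebo library 2 and 7 without placebo library 1, and in deposited CPM 9 passed, none of them lower.

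Ventricular cardiomyocyte markers are set beside the members. All 10 markers had positive log2 fold changes with a median of 0.80, and 2 of the 10 passed the limma test. The marker score, the mean centred log2 level of the 10, was 0.07, 0.33, 0.73, 0.02 and 0.88 in osimertinib libraries 1 to 5, against -1.14, -0.56, 0.16, 0.23 and -0.71 in placebo libraries 1 to 5. Placebo libraries 1, 2 and 5 were the lowest. With this score as a term, a fit added after the data were seen, 136 genes passed (1.1% of those tested), and of the members Kcnj5 and Kcnj3 did. Kcnj5 then had a log2 fold change of 1.69 ± 0.35 (limma adjusted p = 0.0436) and Kcnj3 one of 1.79 ± 0.39 (limma adjusted p = 0.049). In that fit Kcnq1 had 0.81 (adjusted p = 0.0599), near its value of 0.86 without the term. Kcng2 had 0.60 (adjusted p = 0.109), Kcnk3 0.24 (adjusted p = 0.525), Kcnj12 0.42 (adjusted p = 0.51), Kcnd3 -0.30 (adjusted p = 0.497) and Kcnn2 0.69 (adjusted p = 0.156). Of the partners, Popdc2 had 0.52 (adjusted p = 0.18), Bves 0.46 (adjusted p = 0.259), Prkaca 0.25 (adjusted p = 0.459) and Irx5 0.83 (adjusted p = 0.131). Actn2 had 0.24 against 1.02 without the term, and Cav3 0.04 against 0.92. The part of these markers in the results was not tested.

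**Figure D4:**
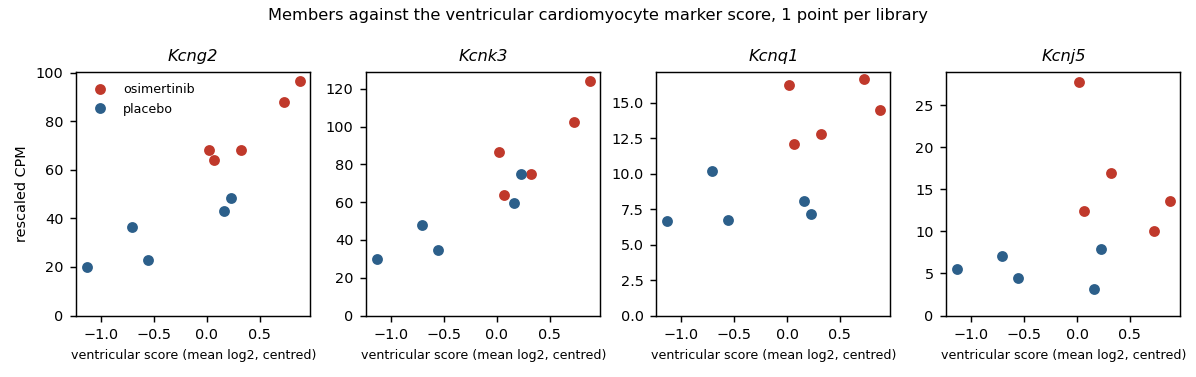
Rescaled CPM of Kcng2, Kcnk3, Kcnq1 and Kcnj5 against the ventricular cardiomyocyte marker score of each library (mean centred log2 of 10 markers), 1 point per library, osimertinib in red and placebo in blue. Kcng2 and Kcnk3 are highest in osimertinib libraries 3 and 5, where the score is highest, and the groups of Kcng2, Kcnq1 and Kcnj5 do not overlap.

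Atrial muscle markers are likewise set beside the members. All 7 tested atrial markers had positive log2 fold changes with a median of 0.95. None passed the limma test, 2 had an unadjusted p under 0.05, and 4 passed in deposited CPM, all higher. Their score was 1.88, 1.9, -2.29, 3.46 and -2.41 in osimertinib libraries 1 to 5, against 1.4, -0.11, -2.47, -2.67 and 1.3 in placebo libraries 1 to 5, so that high and low libraries stood in both groups. Kcnj3 and Kcnj5 were highest in osimertinib library 4, where the score was highest, and Kcnj5 without that library had a log2 fold change of 1.20 (limma adjusted p = 0.0158) and Kcnj3 0.73 (limma adjusted p = 0.0658). In osimertinib libraries 3 and 5, where the score was low, Kcnj5 had 10.1 and 13.6 rescaled CPM, against 3.14 and 7.87 in placebo libraries 3 and 4, where it was low too. Kcna1, chosen after its values were seen, had 5.36, 4.61, 1.2, 10.2 and 2.43 rescaled CPM in osimertinib libraries and 5.24, 2.63, 1.88, 4.13 and 5.47 in placebo libraries, with osimertinib library 4 again the highest. With the atrial score as a term 4864 genes passed (39.4%), and 16 members did, 13 higher and 3 lower. These included the 8 that passed without the term, Kcna5 (-0.55, limma adjusted p = 0.0353) among the lower members, and Kcnd2 (1.05, limma adjusted p = 0.0154), Kcnj2 (0.54, limma adjusted p = 0.0319), Kcna7 (0.89, limma adjusted p = 0.0156), Kcnj3, Kcnj8, Abcc9 and Abcc8 among the higher ones. The part of atrial transcripts in the results was not tested.

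**Figure D5:**
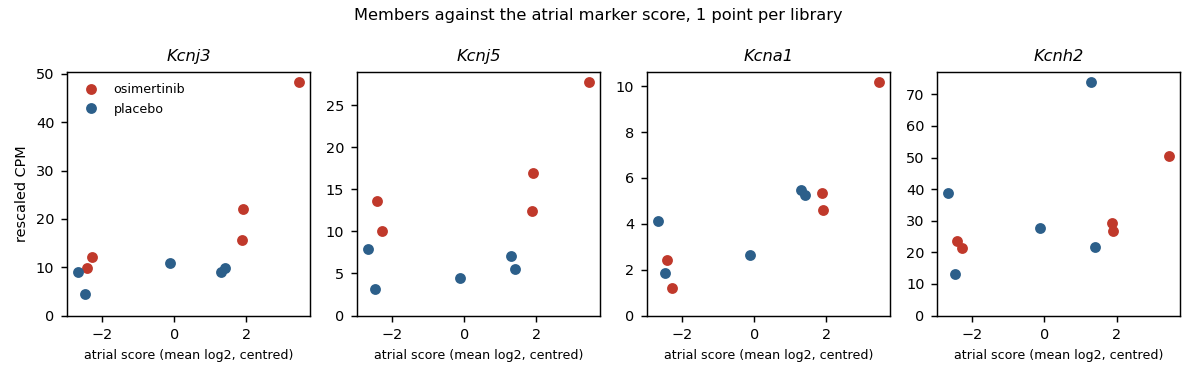
Rescaled CPM of Kcnj3, Kcnj5, Kcna1 and Kcnh2 against the atrial marker score of each library (mean centred log2), 1 point per library, osimertinib in red and placebo in blue. Osimertinib library 4 stands at the right with a score of 3.46 and the highest Kcnj3, Kcnj5 and Kcna1 of all libraries. The highest rescaled Kcnh2 belongs to placebo library 5, whereas in deposited CPM the highest Kcnh2 belongs to osimertinib library 4.

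Other cell types' markers are given for the members they could share. Endothelial markers summed to 1378 to 1709 rescaled CPM in osimertinib libraries and 1487 to 2256 in placebo libraries. Of these, 2 of 10 passed the limma threshold, both lower. Smooth muscle and pericyte markers summed to 663 to 998 in osimertinib and 581 to 868 in placebo libraries, with 0 of 10 past the threshold and 0 with an unadjusted p under 0.05 in limma. Fibroblast markers summed to 764 to 1649 in osimertinib and 554 to 997 in placebo libraries with none of 10 past the limma threshold and 2 with an unadjusted p under 0.05. Macrophage markers summed to 168 to 209 in osimertinib and 121 to 183 in placebo libraries, with 1 of 10 past the limma threshold, a rise. Log2 fold changes were negative in 9 of 10 endothelial and 8 of 10 smooth muscle and pericyte markers. They were positive in 9 of 10 fibroblast and 9 of 10 macrophage markers. Schwann and neuronal markers summed to 7.51 to 20.8 in osimertinib and 10.03 to 23.8 in placebo libraries, and adipocyte markers to 0.623 to 42.1 in osimertinib and 0.524 to 40.9 in placebo libraries. The part of these cell types in the members' values was not tested.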

How the data were processed

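Poly(A) RNA of left ventricle was sequenced in 10 libraries, grouped by their titles. The deposited CPM were made by the authors from each library's total, without a factor between libraries. The design text gives STAR on GRCm38 and RSEM for alignment and quantification and limma with voom as the authors' test. The submitters' processing notes instead name cutadapt 1.9, HISAT2 2.0.4, StringTie 1.3.4d, DESeq2 and hg38. Symbols came from the deposited table, and gene types, coordinates and exon lengths from GENCODE M21 (98.8% of 45706 identifiers matched). Values under 200 reads were whole reads, to 0.01 read, in 90.9% to 93.1% of cases, so no count test was run. Each of 45 pairs of libraries differed beyond sampling noise (chi-square over degrees of freedom of at least 23.9).

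Each library was rescaled by its median ratio, and genes with 1 CPM in at least 5 of 10 libraries were tested with limma 3.58.1 (R 4.3.3) with an intensity trend on log2(rescaled CPM + 0.5), two-sided, Benjamini-Hochberg over 12350 genes, threshold 0.05. On this scale the change of a low gene is understated, and SE stands for limma's moderated standard error. The fit was also run on simulated data with a small set of changed genes and independent noise. That simulation held no marker differences between libraries, so it does not bear on their part in these calls. Subunit ratios had an exact permutation test.

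Members, classes, lists and tests were chosen with earlier results of these data known. Genes were named by rule: the 6 repolarisation genes, members past the threshold, the 3 most abundant of each class, genes of the ratios and 4 called genes of each of 2 pathway lists, with others said to be chosen after their values were seen. Some genes of these counts are not reported here. Alternatives were other scalings, pseudocounts and filters, no trend, array weights, voom, a replicate block, covariates and leaving out each library.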

Additional observations from a re-analysis of the deposited data

Results flagged for a closer look

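In 82 groups of 5 libraries of a member, 7 had a single library far from the other 4 (its gap to the nearest exceeded 0.71 of the group's range), and chance gives about 1 in 20 groups. Kcnd1, which encodes Kv4.1, had 47.98 rescaled CPM in placebo library 2, against 1.34 to 2.53 in the other placebo libraries. Kcna5 had 55.9 in osimertinib library 1, against 34.4 to 36.5 in the other osimertinib libraries. Kcnh2 had 50.5 in osimertinib library 4, against 21.3 to 29.4 in the others of its group, and Abcc8 had 30.46 in the same library, against 16.6 to 20.5. That library also had the highest atrial marker score, and the part of atrial transcripts in both values was not tested. Kcnk6 had 5.726 in osimertinib library 2, against 4.03 to 4.31 in the others of its group. Kcnj3 had 4.511 in placebo library 3, against 9.05 to 10.8, and Kcna7 had 1.77 in placebo library 4, against 0.328 to 0.723 in the others of that group.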

How the results depend on the processing

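The 8 calls among members, 2 among repolarisation genes and 15 over both pathway lists, of 2574 genes in all, stayed within 1.5 times under pseudocounts of 0.1 and 2, a filter of 3 libraries, a mean of at least 5 CPM, no trend, array weights, quantile and upper quartile scaling and voom. In deposited CPM 833 genes passed, with 1 repolarisation gene and 9 pathway genes. In deposited CPM without placebo library 5, 875 genes, 5 members and 1 repolarisation gene passed. Without a filter 1227 genes, 4 members, 1 repolarisation gene and 7 pathway genes passed. With the atrial score as a term 4864 genes, 16 members, 4 repolarisation genes and 31 pathway genes passed, and with the ventricular score 136 genes, 2 members, 0 repolarisation genes and 1 pathway gene. Leaving out each library gave 517 to 2789 genes, 4 to 9 members, 1 to 2 repolarisation genes and 2 to 18 pathway genes, and the cause was not tested. None of 8 subunit ratios passed in any setting.

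No value that changed sign had passed the threshold. The sign changed in 13 of 39 members with the ventricular score and in 7 in deposited CPM. Of the genes named by rule, with the ventricular score these were Kcnh2 (0.39), Kcnd2 (-0.22), Kcnip2 (-0.28), Abcc9 (-0.16), Kcnn1 (-0.083), Kcnt2 (0.37), Kcnj8 (-0.14) and Kcnk6 (0.016). In deposited CPM they were Kcnh2 (0.25) and Kcnk6 (0.031), and without placebo library 5 in that scale Kcnh2 (0.33) and Kcnip2 (-0.04). With array weights they were Kcnh2 (0.045) and Kcnip2 (-0.078). A pseudocount turned the Abcc8 to Abcc9 log2 ratio difference to -0.015. Leaving out a library gave Kcnh2 -0.324 to 0.292, Kcnip2 -0.075 to 0.163, Kcnj11 to Kcnj8 -0.323 to 0.144 and Abcc8 to Abcc9 -0.317 to 0.177.

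Same-numbered libraries of the groups had correlations of deviations of 0.43, 0.25, 0.46, -0.34 and -0.16, so the numbers were not taken as pairs, and 2 of 5 osimertinib libraries matched best with their own number. With the replicate block 2949 genes and 11 members passed, 8 of them shared.

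Depth limits genes near or under 1 CPM, such as Kcnj12, Kcnk5 and, in placebo libraries 1 and 5, Kcnd2: 1 read is worth 0.0469 to 0.063 CPM. With 5 libraries a group, single libraries decide calls near the threshold, and atrial transcripts, mitochondrial share and ventricular marker level vary between libraries of the same group.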

Other observations

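Placebo library 2, which had 47.98 rescaled CPM of Kcnd1, also stood apart in the neighbouring gene upstream on the same strand of chromosome X. Gripap1 had 24.2, 26, 20.03, 23.1 and 20.8 rescaled CPM in osimertinib libraries 1 to 5 and 31, 3.14, 30.7, 29 and 26.9 in placebo libraries 1 to 5, with the low value in placebo library 2. Otud5, a further neighbour, had 43.2, 43.2, 32.2, 49.5 and 32.7 in osimertinib libraries and 66, 65.6, 57.8, 54.7 and 63.8 in placebo libraries, with placebo library 2 within the range of its group. These genes were chosen after their values were seen, and no test was made.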
